A study of Mus musculus with 7 samples.

Results

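The 7 genes described here encode Lin28a and Lin28b and 5 other regulators known from the heterochronic pathway and from early embryonic growth: Hmga2, Sall4, Trim71, Igf2bp1 and Igf2bp3. They were taken by symbol from a deposited expression table of 25965 rows, and each symbol matched 1 row. RNA-seq was performed on the posterior end of female FVB/N mouse embryos at E9.5, dissected behind the last somite that could be seen. The null group, with 4 libraries, was homozygous for the MommeD1 allele of Smchd1, a null allele per the series design, carried by the whole embryo. The design text counts 3 null samples, whereas the labels and the table hold 4. The wild-type group, with 3 libraries, was Smchd1 +/+. Strain, sex and stage were shared by both groups. The tissue is named postsomitic mesoderm in the labels but presomitic in the title. Whether each library came from a separate embryo is not stated, so the p-values here reflect variation among libraries that may be technical. Libraries are lettered within each genotype, and the last number in each column name (18, 21 or 22), which the sources used here do not explain, is given beside the genotype. Number 18 is carried by null A and wild-type B, number 21 by null D and wild-type C, and number 22 by null B, null C and wild-type A.

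Lin28 proteins are RNA-binding proteins that block the maturation of let-7 microRNAs and also bind many mRNAs. Mature let-7 in turn represses Lin28a, Lin28b, Hmga2, Trim71 and the Igf2bp genes, so that early embryonic cells with high Lin28 keep these targets high until let-7 accumulates. In the mouse embryo, Lin28 genes are known to promote growth of the trunk and tail and to act against the late Hox genes that end axis elongation.

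All 9 mature members of the let-7 family listed by RefSeq (GRCm38.p6) share 1 seed. They are shown because the pairing between this seed and the mRNAs of the 7 genes defines the pathway. The seed, bases 2 to 8, is in capitals in the 4 members printed.
let-7a-5p: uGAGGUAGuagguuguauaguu
let-7c-5p: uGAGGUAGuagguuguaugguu
let-7g-5p: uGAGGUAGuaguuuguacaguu
miR-98-5p: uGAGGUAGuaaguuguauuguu

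A GGAG motif in the loop of the precursor is the known contact of the zinc knuckles of Lin28. Of the 11 let-7 family hairpins with both arms annotated, 8 held GGAG between the arms, whereas those of let-7b, let-7c-2 and miR-98 did not. The hairpin of let-7g, on chromosome 9 from 106178840 to 106178927 on the plus strand, carries the motif, shown in capitals.
let-7g hairpin: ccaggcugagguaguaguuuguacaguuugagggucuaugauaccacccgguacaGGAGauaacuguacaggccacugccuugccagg

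Each of the 7 mRNAs contained at least 1 match to the let-7 seed in its 3' UTR, searched as CTACCTC on the mRNA strand in the longest annotated 3' UTR of GENCODE M21. Lin28b, Hmga2, Trim71 and Igf2bp1 had 4 matches each, Lin28a had 2, and Sall4 and Igf2bp3 had 1 each. Among 11712 tested genes with an annotated 3' UTR, 1271 had at least 1 match and 0.0939% had as many as 4. Let-7 regulation is part of why these genes belong together, so the matches describe the genes and are no independent finding. For each gene the match nearest to the stop codon is printed with 15 bases before it and 1 after, the match in capitals, all on the minus strand of mm10.
Lin28a, chr4:134005189-134005211: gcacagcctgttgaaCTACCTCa
Lin28b, chr10:45381022-45381044: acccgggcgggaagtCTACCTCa
Trim71, chr9:114512472-114512494: aacattgcctaagtcCTACCTCa
Hmga2, chr10:120364224-120364246: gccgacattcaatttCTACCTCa
Sall4, chr2:168748940-168748962: agggctttaatttatCTACCTCa
Igf2bp1, chr11:95961778-95961800: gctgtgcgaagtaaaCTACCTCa
Igf2bp3, chr6:49086787-49086809: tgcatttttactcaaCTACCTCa

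All 7 matches printed are followed by an A, the base that extends a seed match to its strongest form. In Trim71 all 4 matches had this A, in Igf2bp1 3 of 4, and in Lin28b and Hmga2 1 of 4. The first match lay 36 bases behind the stop codon in Lin28b and 58 bases behind it in Hmga2, whereas Igf2bp1 had its first match at 1715 bases. Mature let-7 levels were not analysed here.

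**Figure D1:**
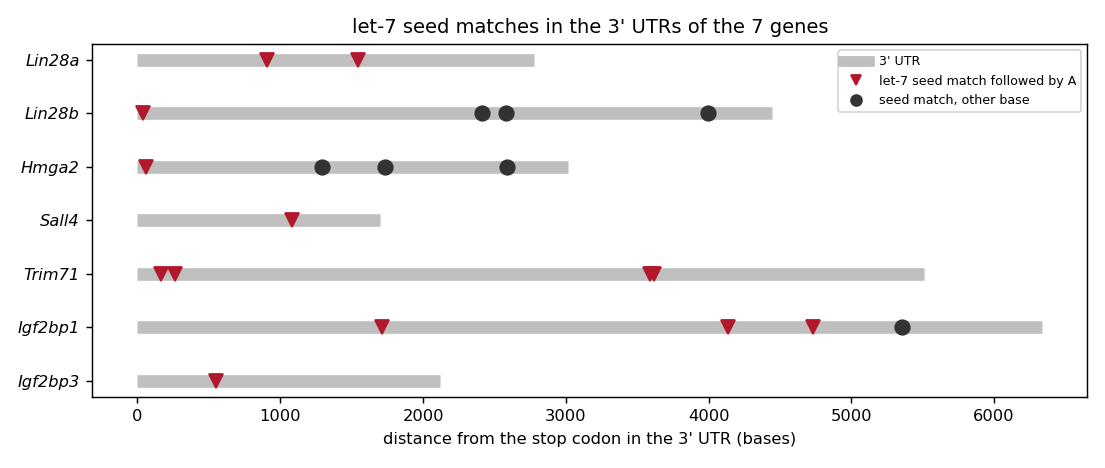
Positions of let-7 seed matches (markers) along the 3' UTR (grey bar) of each of the 7 genes, with distance from the stop codon in bases on the horizontal axis. Red triangles are matches followed by A and dark circles matches followed by another base; Lin28b, Hmga2, Trim71 and Igf2bp1 have 4 matches each.

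Null libraries contained 22137823 to 23847381 reads assigned to the table's genes and wild-type libraries 19622596 to 23548995, recovered as whole reads from the deposited log2 values. Relative to the denominator used for scaling, this was 34.4% to 37.4% in null and 28.8% to 37.9% in wild-type libraries. Among all libraries this share was lowest in wild-type B and C, at 31.2% and 28.8%, and highest in wild-type A, at 37.9%. The median log2 change of all 13997 tested genes was 0.16 on the deposited scale, and its cause was not tested. Each change below is therefore also given relative to the autosomal median of its library, called centred. Smchd1 itself had 1922 to 2372 reads in null and 5572 to 6552 in wild-type libraries, with a centred change of -1.67 (limma adjusted p = 9.54e-05). All 12 listed markers of presomitic mesoderm and tailbud passed the filter on low values, summing to 409.8 to 526.9 RPM, the scaled read count of the deposited table before its logarithm, in null and 275.3 to 454.2 RPM in wild-type libraries. Markers of other tissues were also present. The summed level of 5 notochord markers was 35.1 to 43.3 RPM in null and 19.7 to 24.9 RPM in wild-type libraries, that of 6 hindgut markers was 109.8 to 132.7 RPM in null and 61.3 to 106.4 RPM in wild-type, and that of 6 germ cell markers was 15.7 to 21.02 RPM in null and 5.67 to 17.4 RPM in wild-type libraries. Dppa3, a marker of early germ cells, had 15 to 46 reads in null and 1 to 30 in wild-type libraries, Nanos3 had 22 to 58 in null and 26 to 59 in wild-type, and Dnd1 had 95 to 112 in null and 106 to 126 in wild-type libraries. In null libraries these genes made up only a small part of the germ cell sum. The tailbud and germ cell sums overlapped between genotypes, whereas the notochord and hindgut sums did not. All other sums overlapped. The sums were not centred. On the deposited scale every null library was above every wild-type library in 7.02% of all tested genes, and 92.7% had a change above 0. The highest library was wild-type for somite markers, at 15.7 to 56.6 RPM in null and 17.0 to 83.4 RPM in wild-type. So it was for neural tube, at 17.0 to 53.4 RPM in null and 24.9 to 69.2 RPM in wild-type. Primitive blood, at 79.02 to 103.0 RPM in null and 55.4 to 112.4 RPM in wild-type, was alike in this. The highest library was null for surface ectoderm, at 55.3 to 68.5 RPM in null and 34.7 to 58.5 RPM in wild-type. In the same order, lateral plate mesoderm had 66.05 to 167.8 and 50.7 to 142.2 RPM, and endothelium 159.4 to 237.6 and 98.45 to 210.9 RPM. Wild-type B stood apart from the other wild-type libraries in some tailbud and posterior genes. It had 200 reads of Cyp26a1 against 2033 and 2391 in wild-type A and C, 118 of Wnt3a against 1102 and 1243, and 125 of Hoxd13 against 1472 and 1265. It also had more reads of the somite gene Meox1, at 3272 against 1548 and 396, and of the neural gene Sox1, at 1199 against 550 and 334. Not every tailbud marker was lower in wild-type B. Dll1 had 6111 reads there, against 5321 in wild-type A and 3713 in wild-type C. Tbx6 had centred values of 1.24, 1.23 and 1.24 in wild-type B, A and C. The part of these cells in the values below was not tested, and fewer cells of a type cannot be told apart from less RNA per cell in such bulk samples.

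All 7 genes were expressed in every library, with 1328 reads or more, and none was called in null against wild-type tissue. The test was limma across all genes with Benjamini-Hochberg adjustment at 0.05, which called 6 of 13997 genes, 0.0429% of those tested, on the deposited scale and 8, 0.0572%, after centring. At an unadjusted p under 0.05, 0 of the 7 genes passed on the deposited scale, where 14.0% of all genes did, and 4 passed toward lower values after centring, where 6.71% of all genes did, and none passed toward higher values, where 7.29% did. The deposited changes ran from -0.08 to 0.15 with a median of 0.06, and the centred changes from -0.28 to -0.04 with a median of -0.13. The median over all tested genes was 0.16 deposited and -0.03 centred. On the deposited scale 6 of the 7 were above 0, as were 92.7% of all tested genes. After centring all 7 changes were below 0, as were 57.5% of all tested genes and 58.6% of the autosomal ones. That direction did not hold under every scaling, since under cyclic loess and quantile normalization Sall4 was at 0.04 in both, Igf2bp3 at 0.002 and 0.008, and Hmga2 at -0.0008 and 0.004. Without wild-type B the centred changes were -0.11 for Lin28a, -0.10 for Lin28b, -0.08 for Hmga2, -0.01 for Sall4, -0.22 for Trim71, -0.14 for Igf2bp1 and -0.04 for Igf2bp3.

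**Figure D2:**
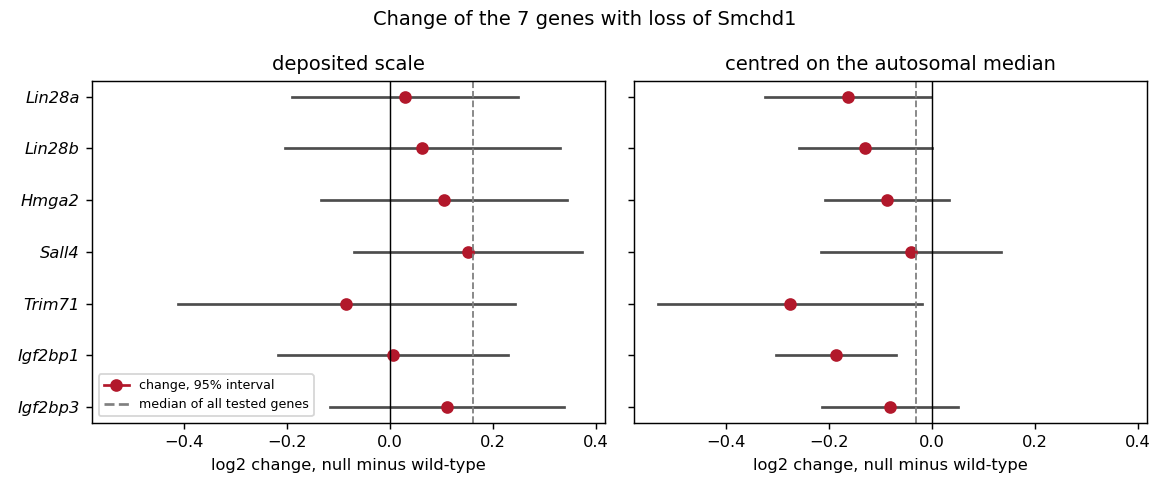
Log2 change, null minus wild-type, of each gene with its 95% interval from limma, on the deposited scale (left) and centred on the autosomal median of each library (right). The dashed line is the median of all 13997 tested genes, 0.16 deposited and -0.03 centred; every deposited interval includes 0, and after centring the interval of Igf2bp1 lies farthest below 0 relative to its width.

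Lin28a, on chromosome 4 from 134003330 to 134018841 in mm10, encodes the Lin28 paralogue that acts in the cytoplasm together with a terminal uridylyltransferase to send let-7 precursors to decay. It measured 68.2, 65.9, 71.5 and 66.0 RPM in null libraries A to D, against 71.4, 67.5 and 61.0 RPM in wild-type libraries A to C. The groups overlapped, and the null libraries lay within the wild-type range except for null C, which was just above it. The change was 0.03 on the log2 scale (95% interval -0.19 to 0.25, limma adjusted p = 0.865). After centring it was -0.16 (interval -0.32 to -0.003, adjusted p = 0.352), and the level above the autosomal median averaged 1.95 ± 0.08 over the 4 null libraries, against 2.11 ± 0.13 over the 3 wild-type libraries (mean ± SD).

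Lin28b, on chromosome 10 from 45376620 to 45470201, encodes the second Lin28 paralogue. Its levels were 49.97, 46.4, 49.6 and 50.1 RPM in null libraries A to D, against 56.1, 46.3 and 39.7 RPM in wild-type libraries A to C. The null libraries sat close together inside the wider wild-type range. The change was 0.06 (interval -0.20 to 0.33, limma adjusted p = 0.770). The centred change was -0.13 (interval -0.26 to -0.001, adjusted p = 0.352), and the centred values of null A, at 1.59, overlapped those of wild-type C, at 1.54. Per kb of the longest mRNA, Lin28a was 2.03 to 2.22 times as abundant as Lin28b in null and 1.96 to 2.36 times in wild-type libraries, so the balance of the paralogues overlapped between genotypes. The size of this ratio depends on the length used. Per kb of merged exons, mean Lin28a and Lin28b were 17.0 and 5.41 RPM in null and 16.7 and 5.23 RPM in wild-type libraries.

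Trim71, on chromosome 9 from 114511275 to 114564369, encodes an RNA-binding ubiquitin ligase and is the mammalian orthologue of lin-41, the let-7 target first found in Caenorhabditis elegans. It had 25.9, 22.6, 23.1 and 20.7 RPM in null libraries A to D, against 29.9, 24.9 and 19.5 RPM in wild-type libraries A to C. Wild-type A was highest and wild-type C lowest, with the null libraries between them. Its deposited change was -0.08 (interval -0.41 to 0.24, limma adjusted p = 0.748), the only one of the 7 below 0. The centred values were 0.64, 0.40, 0.34 and 0.18 in null A to D and 0.71, 0.78 and 0.51 in wild-type A to C. Null A alone reached the wild-type range, and the centred change of -0.28 (interval -0.53 to -0.02, adjusted p = 0.352) was the largest in size among the 7 genes. The residual SD of Trim71 after centring, 0.173, was above that of 86.9% of 3329 genes of like level.

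Hmga2, on chromosome 10 from 120361275 to 120476469, encodes a chromatin architectural protein with AT-hooks and is a classic let-7 target. It measured 97.4, 90.0, 105.7 and 96.5 RPM in null libraries A to D, against 105.0, 85.6 and 82.0 RPM in wild-type libraries A to C. The groups overlapped only through wild-type A, which lay inside the null range, whereas wild-type B and C lay below every null library. The change was 0.11 (interval -0.13 to 0.35, limma adjusted p = 0.620) and the centred change -0.09 (interval -0.21 to 0.03, adjusted p = 0.417).

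Sall4, on chromosome 2 from 168748332 to 168767943, encodes a zinc-finger transcription factor of pluripotent and progenitor cells. It had 73.0, 69.1, 69.4 and 79.8 RPM in null libraries A to D, against 70.0, 64.1 and 62.6 RPM in wild-type libraries A to C. Null D was highest, and wild-type A overlapped null B and C. The change was 0.15 (interval -0.07 to 0.37, limma adjusted p = 0.501), close to the shift of all genes, and the centred change was -0.04 (interval -0.22 to 0.13, adjusted p = 0.790).

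The Igf2bp proteins bind mRNAs, among them that of Igf2, and control their stability, transport and translation. Igf2bp1, on chromosome 11 from 95957163 to 96005940, measured 131.4, 128.6, 136.1 and 132.7 RPM in null libraries A to D, against 150.0, 132.7 and 114.6 RPM in wild-type libraries A to C. The deposited means were nearly equal, at 132.2 ± 3.10 RPM over the 4 null libraries and 132.4 ± 17.7 RPM over the 3 wild-type libraries (mean ± SD), with a change of 0.01 (interval -0.22 to 0.23, limma adjusted p = 0.975). After centring, the null libraries had values of 2.99, 2.90, 2.90 and 2.86 for A to D, against 3.03, 3.20 and 3.07 in wild-type A to C. Every null library then lay below every wild-type library, which was also so for 6.24% of all tested genes. The centred change of -0.19 (interval -0.30 to -0.07, unadjusted p = 0.00588 by limma) did not pass after adjustment (adjusted p = 0.308). Igf2bp1 was the only one of the 7 genes whose groups did not overlap on the centred scale, and on the deposited scale all 7 overlapped.

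Igf2bp3, on chromosome 6 from 49085221 to 49214954, measured 92.7, 84.6, 94.8 and 92.9 RPM in null libraries A to D, against 94.5, 84.0 and 75.8 RPM in wild-type libraries A to C. Its change was 0.11 (interval -0.12 to 0.34, limma adjusted p = 0.598) and its centred change -0.08 (interval -0.21 to 0.05, adjusted p = 0.468). Of its merged exon bases 18.7% overlap Malsu1 on the opposite strand, and reads of the genes cannot be told apart there, the strand setting of the counting being unknown. The same holds for 9.501% of the exon bases of Sall4, 5.86% of those of Lin28a, 2.07% of those of Hmga2, 1.45% of those of Trim71 and 0.444% of those of Igf2bp1, while Lin28b had no such overlap.

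**Figure D3:**
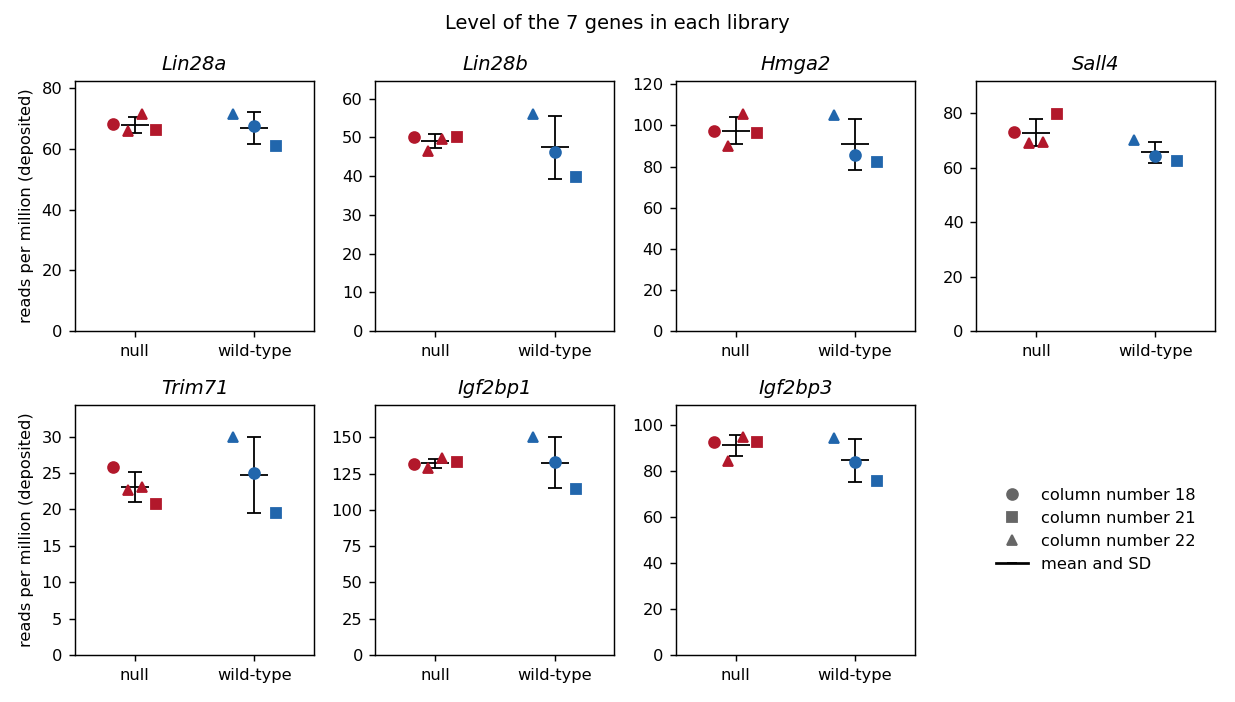
Deposited level of each gene in RPM, 1 point per library, null left and wild-type right, with the mean and SD of each group; the shape of a point gives the last number in the column name. In Lin28b, Trim71 and Igf2bp1 the wild-type libraries spread wider than the null libraries, from 39.7 to 56.1 RPM in wild-type Lin28b against 46.4 to 50.1 RPM in null.

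Levels were compared between genes per kb of the longest protein-coding mRNA in GENCODE M21. In null tissue Hmga2 stood highest at 25.6 ± 1.69 RPM per kb (SD, n = 4), ahead of Igf2bp3 at 21.002 ± 1.05, Lin28a at 19.4 ± 0.753, Igf2bp1 at 15.8 ± 0.370, Sall4 at 14.4 ± 0.979, Lin28b at 9.07 ± 0.324 and Trim71 at 2.47 ± 0.227. The order was the same in wild-type tissue, at 23.9, 19.5, 19.01, 15.8, 12.9, 8.77 and 2.66 RPM per kb. Neighbouring ranges overlapped in null tissue for Igf2bp3 and Lin28a, and for Igf2bp1 and Sall4. The order of the upper genes depends on the length used: per kb of merged exons Lin28a came first in null tissue at 17.0, Hmga2 had 14.4 and Igf2bp3 11.2, while Lin28b at 5.41 and Trim71 at 2.47 remained lowest.

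The centred values of the 7 genes were set beside the last number in the column name, without a test. The order of numbers 21 and 22 differed between the genotypes in some genes, such as Lin28a, and was the same in others, such as Trim71. After centring, the library numbered 18 was the highest of its genotype, in null and in wild-type alike, for Lin28a, Lin28b, Trim71, Igf2bp1 and Igf2bp3, which was also so for 19.6% of all tested genes. In Hmga2 and Sall4, wild-type C, numbered 21, was above wild-type B. Within each of the 3 numbers the centred null mean lay below the wild-type mean for 6 of the 7 genes, against 25.2% of all tested genes. For Igf2bp1 these differences were -0.21 at number 18, -0.21 at number 21 and -0.13 at number 22, and for Trim71 -0.14, -0.33 and -0.34. Lin28b gave -0.09, -0.08 and -0.18, and Lin28a -0.18, -0.30 and -0.01. Sall4, the seventh, was at 0.03 at number 22. Each number holds 1 wild-type library, so these differences have no replicate check. Null B and null C share the first number of their column names as well as the last. The first number also crosses genotypes, since null D, wild-type B and wild-type C share theirs. Within it, null D minus the mean of the wild-type libraries was -0.34 for Lin28a, -0.15 for Lin28b, -0.17 for Hmga2, -0.04 for Sall4, -0.47 for Trim71, -0.27 for Igf2bp1 and -0.16 for Igf2bp3 after centring, again with 1 null library.

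Nr6a1, a nuclear receptor gene known to promote trunk development and a let-7 target, was named here after its values were seen. Its centred values spread wider than those of any of the 7 genes, with centred values of 1.35 in null A against 1.60 in wild-type B at number 18, 0.46 in null D against 0.77 in wild-type C at number 21, and -0.09 and 0.43 in null B and C against 0.92 in wild-type A at number 22. Its centred change was -0.56 (SE 0.32, limma adjusted p = 0.404), its groups overlapped, and without wild-type B the change was -0.31. Gdf11 and Hoxc13 were examined by number too, Gdf11 likewise named after its values were seen. Gdf11, whose product ends trunk formation, had centred values of 1.22 in null A against 0.73 in wild-type B at number 18, 1.18 in null D against 1.28 in wild-type C at number 21, and a null mean of 1.60 against 1.35 in wild-type A at number 22. The null library was thus lower at number 21 and higher at the other numbers. Hoxc13, one of the last Hox genes to be activated, had 51 reads in null A against 3 reads in wild-type B, and 106 to 226 reads in the other null libraries against 55 and 69 in the other wild-type libraries.

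**Figure D4:**
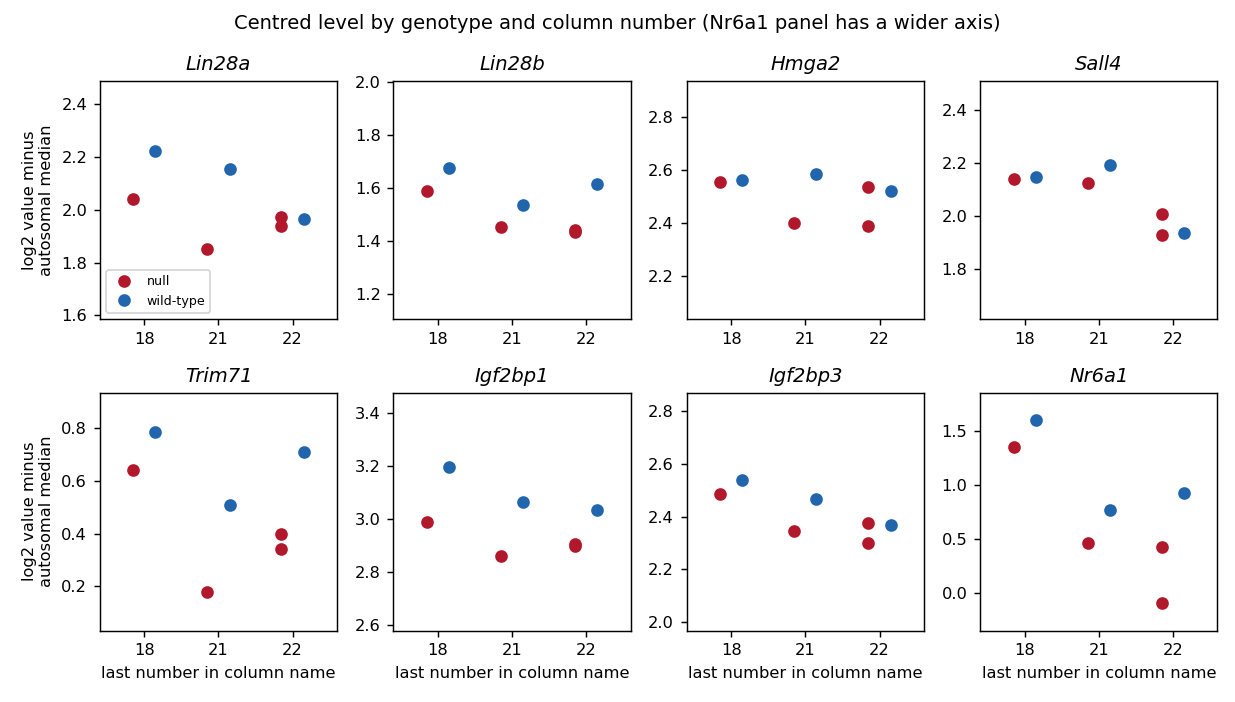
Centred log2 level, above the autosomal median of the library, by last number in the column name for null (red, left) and wild-type (blue, right) libraries of the 7 genes and Nr6a1. Each point is 1 library; at number 21 the null library lies below the wild-type library in every panel, and Nr6a1 reaches 1.35 in null and 1.60 in wild-type at number 18.

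Across the 7 libraries the centred values of the genes were compared in 21 pairs, as a description over libraries that share genotype and number. Pearson's r was from 0.111 to 0.934, with a median of 0.71, and the deviations from the genotype means had a median r of 0.529. Lin28b and Trim71 were the closest pair at 0.934, followed by Lin28a and Igf2bp1 at 0.909, and Sall4 with Trim71 was the most distant at 0.111. High values were common in the table: 8.95% of 9560 genes of moderate or high level had an r above 0.9 with Lin28a and 3.63% with Lin28b. The 3 genes most like Lin28a were Mrpl44 (r = 0.995), Ppp4r1 (r = 0.993) and Ncl (r = 0.992). Those most like Lin28b were Chd1 (r = 0.997), Cebpg (r = 0.987) and Bptf (r = 0.987). Only 0.303% of the genes reached 0.9 with Sall4.

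None of the related gene lists held a called gene, and the counts can be read against the 0.0429% called over all genes. Below, where a centred change stands in brackets with an adjusted p, that limma p belongs to the deposited change before the brackets. Of 25 other known let-7 targets, all measured, 0 passed in either direction over all genes. Their median centred change was -0.12 and 23 of 25 were below 0, against 57.5% of all tested genes. The direction turned with the scale, as the median deposited change was 0.07 and 18 of 25 were above 0, against 92.7% of all tested genes. The pair with the smallest p on the deposited scale, and the only ones of the 25 above 0 after centring, were Insr, the insulin receptor gene, with a deposited change of 0.29 (centred 0.10, limma adjusted p = 0.417), and the IGF receptor gene Igf1r with 0.22 (centred 0.03, adjusted p = 0.435). After centring the groups of 4 of the 25 did not overlap, with the null libraries lower, as in 6.24% of all tested genes. These were Myc, Nras, Igdcc3 and Cdc34, named after their values were seen, and none passed (limma adjusted p = 0.361 for Myc and 0.352 for each of the others). The centred changes were -0.12 for Nras, -0.21 for Igdcc3 and -0.20 for Cdc34, and without wild-type B -0.08, -0.13 and -0.12. For Myc the change of -0.49 rested largely on null D, with centred values of 0.28, 0.37, 0.49 and -0.61 in null A to D, against 0.59, 0.72 and 0.57 in wild-type A to C, and was -0.25 without null D.

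The median change was alike at every number of let-7 seed matches. With the 7 genes left out, the median centred change was -0.03 in 10441 genes with no match, -0.03 in 1107 genes with 1, -0.03 in 139 genes with 2 and -0.03 in 18 genes with 3 or more. The share of genes with a change below 0 was 57.9%, 57.4%, 59.7% and 61.1% in the same order. The median 3' UTR length was 1109 bases with no match and 4462 bases with 3 or more, and the median wild-type log2 level was 4.09 and 4.00.

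Of 19 measured genes for microRNA processing and let-7 decay, 0 passed, and the median change was 0.10 deposited and -0.09 centred. Eif2c4, the older symbol of the Argonaute gene Ago4, had a deposited change of 0.70 (centred 0.50, limma adjusted p = 0.324), with 231 to 428 reads in null and 115 to 237 in wild-type libraries. Its highest count was in null D and its lowest in wild-type B, without which the centred change was 0.26. Prkra, which encodes a partner of Dicer, had 0.22 (centred 0.03, adjusted p = 0.429). Zcchc11, the uridylyltransferase that works with Lin28a, had 0.10 (centred -0.09, adjusted p = 0.634). Among the listed let-7 host genes, only the X-linked Huwe1, which contains the hairpins of let-7f-2 and miR-98, spans annotated hairpins in the table. Huwe1 measured 335.2, 340.6, 360.4 and 359.9 RPM in null libraries A to D, against 328.0, 273.4 and 254.7 RPM in wild-type libraries A to C. Every null library was above every wild-type library, deposited and centred, as were 32.5% of 496 tested X-linked genes after centring. Its deposited change was 0.30 (centred 0.11, limma adjusted p = 0.255). The noncoding gene 2610203C20Rik, listed as a host but not spanning a hairpin in the table, had 1.11 (centred 0.92, adjusted p = 0.366). It had only 26 to 176 reads over all libraries, and without wild-type B its centred change was 0.56.

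Of 12 genes of the IGF2 axis 0 passed, with a median change of 0.13 deposited and -0.06 centred. Igf2, the growth factor gene whose mRNA the Igf2bp proteins bind, had a deposited change of 0.05 (centred -0.14, limma adjusted p = 0.770), and the binding protein gene Igfbp3 0.36 (centred 0.17, adjusted p = 0.341). Of 8 paralogues of the 7 genes 0 passed. Their smallest p belonged to Trim2, at 0.39 (centred 0.19, limma adjusted p = 0.278), and Sall3, at 0.33 (centred 0.13, adjusted p = 0.310). Igf2bp2 had a change of 0.04 (centred -0.15, adjusted p = 0.806) and Hmga1 -0.03 (centred -0.22, adjusted p = 0.904).

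Genes of the trunk-to-tail transition spread wider than the Lin28 group. Of 20 listed, 19 passed the filter and 0 were called, with centred changes from -1.63 to 2.29 and a median of 0.07. Without wild-type B the range was -1.14 to 0.87 and the median -0.03. The lowest was Fst, the gene of the activin and Gdf11 antagonist follistatin (SE 0.83, limma adjusted p = 0.370 after centring), and the highest Hoxc13 (SE 1.03, adjusted p = 0.353 after centring), whose change of 2.29 was 0.87 without wild-type B. Both had fewer reads than any of the 7 genes. Fst had 32 to 303 in null and 160 to 554 in wild-type libraries, with overlapping groups, and Hoxc13 had 3 to 226 over all libraries. The tailbud gene T had a deposited change of 0.76 (centred 0.57, limma adjusted p = 0.198). Without wild-type B it was 0.41 deposited and 0.26 centred. T was called by limma as deposited without null A (0.86, adjusted p = 0.0492) or without wild-type A (0.98, adjusted p = 0.0284). Leaving out wild-type A gave the most called genes of any single library left out, so that call is not particular to T. The count is given below with the dependence on processing. Of 18 early embryo and pluripotency genes 10 passed the filter and 0 were called, with a median centred change of 0.08. L1td1, an RNA-binding protein gene of pluripotent cells, had 3.44, 3.597, 3.89 and 4.14 RPM in null libraries A to D, against 3.06, 1.94 and 2.21 RPM in wild-type libraries A to C. Its groups did not overlap on either scale, and its change was 0.67 (centred 0.48, limma adjusted p = 0.255). Every null library was above every wild-type library in 7.02% of all genes on the deposited scale and 6.51% after centring. Esrrb, a nuclear receptor gene of pluripotent cells, had 1.00 (centred 0.81, adjusted p = 0.298) with 60 to 106 reads in null and 25 to 74 in wild-type libraries. Without wild-type B the centred change of Esrrb was 0.43.

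**Figure D5:**
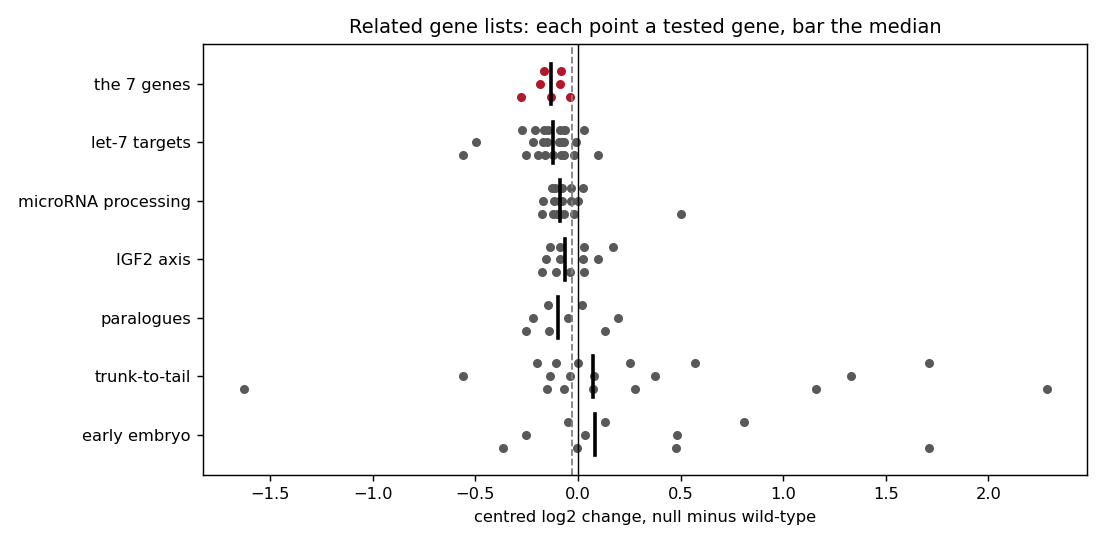
Centred log2 change, null minus wild-type, of every tested gene of the 7 genes and 6 related lists (host genes not drawn), with the median of each list as a bar and the median of all tested genes as a dashed line at -0.03. The 7 genes run from -0.28 to -0.04, while trunk-to-tail genes run from -1.63 to 2.29, or -1.14 to 0.87 without wild-type B.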

How the data were processed

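The submitters' processing notes name mm10 as genome build and list bcl2fastq, edgeR and TopHat2 (2.0.12), without their order. For counting tool, annotation and strand setting, nothing is given in the sources used here. From the authors, the deposited file is 1 table of log2 CPM (25965 rows, 7 libraries), per the file headers, whose column names give genotype and unexplained numbers. Back-calculated reads under 1000 were all whole to within 0.01 read, and an unread gene stands at 0.9 read. Intervals are 95% limma intervals for the difference of the group means, based on the spread between libraries.

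The filter required log2 values over 0 in 3 or more libraries, and all 7 genes passed in both genotypes. Genotype was fitted with limma 3.58.1 in R 4.3.3 (prior trend, no covariate, Benjamini-Hochberg adjustment over 13997 genes), as deposited and centred on the median of kept autosomal genes. The fit was tested on simulated data. Tables and figures used Python 3.11.15, pandas 2.3.3, numpy 2.4.6 and matplotlib 3.10.9. Alternatives were other scalings, filters, priors, a pseudocount of 1 RPM, voom, a block and leaving out libraries. A count test with edgeR or another tool was not run because the deposited unit is log2; voom on the recovered reads with median-ratio scaling took its place and called 8 genes.

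The members and lists were chosen with earlier results of these data known. From each list the called genes, or else the 2 with the smallest p, were named, and for Lin28a and Lin28b the 3 genes with the highest correlation. GENCODE M21 and RefSeq supplied annotation and sequences, and of 7 symbols 7 matched.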

Additional observations from a re-analysis of the deposited data

Results flagged for a closer look

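Single null libraries stood apart from the other 3 by Dixon's criterion for 4 values, which chance alone meets in about 1 of 20 groups, in 3 of 40 groups of values examined. For Lin28b, null B was lowest on the deposited log2 scale at 5.54, with the next library at 5.63 and a gap of 0.880 of the range. For Lin28b after centring, null A, numbered 18, was highest at 1.59, with the next at 1.45 and a gap of 0.884. For Igfbp3, null A was lowest on the deposited scale at 4.78, with the next at 4.93 and a gap of 0.892.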

How the results depend on the processing

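Count tests on the recovered reads with edgeR and a second count tool, and voom with TMM scaling, were planned and not run. In 0 of 27 alternatives was any of the 7 genes called, and their smallest adjusted p was 0.0609, for Hmga2 without wild-type A as deposited. The directions depended on scaling. Centring gave -0.16 for Lin28a, -0.13 for Lin28b, -0.0866 for Hmga2, -0.0410 for Sall4, -0.19 for Igf2bp1 and -0.0814 for Igf2bp3. In the same order, centring without both libraries numbered 18 gave -0.14, -0.13, -0.11, -0.0418, -0.16 and -0.0766, and voom gave -0.13, -0.10, -0.0608, -0.00993, -0.16 and -0.0539, both chosen after seeing the data. Cyclic loess gave -0.0884 for Lin28a, -0.0664 for Lin28b, -0.000760 for Hmga2 and -0.0905 for Igf2bp1; quantile normalization gave -0.0925, -0.0679 and -0.10 for Lin28a, Lin28b and Igf2bp1. Leaving out 1 library, over both scales, gave -0.24 to 0.0800 for Lin28a, -0.17 to 0.19 for Lin28b, -0.11 to 0.21 for Hmga2, -0.12 to 0.20 for Sall4, -0.36 to 0.0622 for Trim71, -0.22 to 0.10 for Igf2bp1, -0.13 to 0.19 for Igf2bp3, -0.00957 to 0.51 for Igfbp3, -0.0152 to 0.48 for Insr, -0.00588 to 0.37 for Igf1r and -0.00561 to 0.31 for Prkra. As deposited, the highest of these values for each of the 7 genes came without wild-type A.

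The count of all called genes, 6, was 19 with cyclic loess, 16 with quantile normalization, 105 with the stricter filter, 12 with the pseudocount, 3 without a prior trend, 53 with a robust prior, 256 without both libraries numbered 18, and 2 (without wild-type C) to 4220 (without wild-type A) without 1 library; the cause was not tested. After centring it was 4 to 10 without 1 library. List counts, 0 each, reached 6 for let-7 targets, 7 for microRNA processing, 1 for host genes, 3 for the IGF2 axis, 4 for trunk-to-tail, 4 for early embryo and 2 for paralogues without wild-type A, with lowest values of 0. Huwe1 made the host count 1 with cyclic loess, and 2610203C20Rik made it 1 without both libraries numbered 18. The trunk-to-tail count was 1 with the stricter filter and 2 without both libraries numbered 18.

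The replicate numbers of the sample titles are not in the column names, so they could not be used as a block. A block on the last column number called 742 genes as deposited and 8 after centring, with trunk-to-tail at 6 and early embryo at 2 as deposited. It gave -0.15 for Lin28a, -0.12 for Lin28b, -0.0816 for Hmga2, -0.00898 for Sall4, -0.18 for Igf2bp1 (-0.0131 as deposited) and -0.0650 for Igf2bp3 with centring. Same-numbered libraries did not all deviate together (r = 0.354 at number 18, -0.07 at 21, 0.184 and 0.380 at 22), so the block was not taken as a pairing. The first number in the column names also joins null D with wild-type B (r = 0.208) and wild-type C (r = -0.07).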
